A study of Mus musculus with 14 samples.

Results

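The genes described here are 10 genes of the amino acid response that is run by the transcription factor ATF4: Atf4 itself, Asns, Mthfd2, Psat1, Slc7a5, Slc3a2, Ddit3, Trib3, Ddit4 and Sesn2. They were found as the probe sets whose single platform gene symbol was one of these names, which gave 18 probe sets for 10 of the 18193 genes with a symbol on the array. The arrays measured RNA of peritoneal cells, labelled as macrophages, from female C57Bl/6 x C3H F1 mice aged 12 to 16 weeks. There were 14 arrays in 5 groups. The 2 naive arrays came from mice with neither LPS nor SMD, and 3 arrays each came from mice given LPS (bacterial lipopolysaccharide from Salmonella minnesota, 60 µg per mouse into a tail vein) or LPS after SMD at 100, 200 or 300 mg/kg. SMD, an agent that the labels do not spell out, was put on the nares under halothane 30 minutes before LPS. Cells of the SMD groups were taken 2 hours after LPS, and the time for the group given LPS alone was not given in the sources used here, nor was any vehicle given to the controls. Replicates are called biological in the titles except for the naive ones, and whether an array held cells of 1 mouse or of a pool is not said, so the p-values measure only how these samples scatter, part of which may be technical.

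When amino acids run short or unfolded proteins gather in the endoplasmic reticulum, kinases phosphorylate the translation factor eIF2alpha. Most protein synthesis then slows while the ATF4 protein is made from an mRNA that is already present, and ATF4 switches on genes for amino acid synthesis and uptake as well as genes that limit growth or end the response. In macrophages, bacterial products are known to raise several of these genes. The mRNA of Atf4 is only 1 layer of its control, and arrays do not show its translation.

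ATF4 binds, with C/EBP family partners, composite elements whose core can be written TGATGNAA. This core was searched on both strands in RefSeq promoters of assembly GRCm38.p6, which run from 250 bases before to 50 bases after each start. Of the 10 genes, 9 had an entry, and Psat1 had 2. The core was present in the promoters of 2 of these 9 genes, Asns and Trib3, and in 1304 of 32851 promoters in all (3.97%). Both promoters are shown because they hold the match in genes whose RNA was measured here, with the matched bases in capitals and each read 5′ to 3′ on its gene's strand. The Asns window is chr6:7693160-7693459 on the minus strand, and its match TGATGAAA lies 23 to 16 bases before the start. The Trib3 window is chr2:152344011-152344310 on the minus strand, and its match TTACATCA, the core read on the other strand, lies at bases 15 to 22 after the start. A match describes the letters of the window and is not a measured binding site.
Asns: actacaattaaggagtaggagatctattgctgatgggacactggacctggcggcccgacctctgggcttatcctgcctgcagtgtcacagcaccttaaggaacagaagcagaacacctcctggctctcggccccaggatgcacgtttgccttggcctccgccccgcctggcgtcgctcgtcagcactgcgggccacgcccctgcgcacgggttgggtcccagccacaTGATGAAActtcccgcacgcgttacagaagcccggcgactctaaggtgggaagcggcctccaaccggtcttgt
Trib3: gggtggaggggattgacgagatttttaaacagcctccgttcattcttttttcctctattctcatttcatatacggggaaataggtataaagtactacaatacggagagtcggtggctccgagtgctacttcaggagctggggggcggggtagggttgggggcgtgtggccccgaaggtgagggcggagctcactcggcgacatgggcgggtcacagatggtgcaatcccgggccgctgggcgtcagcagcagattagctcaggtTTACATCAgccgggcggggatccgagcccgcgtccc

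Signals are MAS5 values, a linear measure of brightness that is scaled on each array, and signals of different probe sets are not compared with each other. Changes are differences of log2(signal + 16), fitted with limma over all 14 arrays, with p-values adjusted by Benjamini-Hochberg over the 27022 probe sets that passed a filter on low signals. A gene is said to have risen or fallen where this adjusted p was under 0.05, and each gene was represented by its brightest probe set. All 10 genes passed the filter, with 16 of their 18 probe sets. Each comparison is given with the share of all tested probe sets that passed the same test. All comparisons with LPS alone share its 3 arrays, and a fall after SMD therefore uses the same values as the rise after LPS.

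Values of the arrays as a whole moved with the groups. The beta-actin 3'/5' ratio, which rises when RNA is degraded or copied incompletely, was 2.84 and 3.05 in naive arrays, 1.92 to 5.86 after LPS, 2.72 to 11.6 at 100 mg/kg, 9.03 to 10.7 at 200 mg/kg and 6.99 to 18.9 at 300 mg/kg. At 100 mg/kg, replicate 3 had the lowest ratio of its group, and its mean correlation was 0.945 with the LPS arrays and 0.927 with its own group. The GAPDH 3'/5' ratio was 6.78 and 8.86 in naive arrays, and 4.54, 92 and 16.8 after LPS. It was 21 to 74.2 at 100 mg/kg, 67 to 114 at 200 mg/kg and 32.2 to 179 at 300 mg/kg. LPS replicate 2, at 92, thus lay within the range of the 200 mg/kg arrays. Only the actin ratio was used in a model, and whether it captures RNA quality in full was not tested. Macrophage markers were bright in every group: the 12 of 12 markers measured summed to 155058 to 162698 in naive arrays and to 160984 to 186702 over the other 12. Single markers moved apart: from naive to LPS the mean of Cd14 went from 8096 to 44201, while Gata6 went from 2665 to 828, Icam2 from 13564 to 6123, Mertk from 2060.1 to 852 and Itgam from 4268 to 2314. The summed signal of 10 of 12 neutrophil markers was 2765 to 3587 in naive arrays, 21329 to 23795 after LPS, 16173 to 30853 at 100 mg/kg, 29479 to 29980 at 200 mg/kg and 36386 to 47683 at 300 mg/kg. In the LPS-challenged arrays S100a8 and S100a9 made up most of it, while the granule genes differed: Mpo and Elane had signals of 2.7 to 108.8 on all arrays, and mean signals from naive to LPS went from 60.1 to 1146 for Ngp, 7.15 to 166 for Ltf, 47.6 to 267 for Camp and 49.3 to 148 for Mmp8. B cell markers (9 of 10 measured) summed to 77782 to 81291 in naive arrays and to 29823 to 63279 in the others. T and NK cell markers (8 of 10) summed to 1972 to 2179 in naive arrays and 3146 to 5717 in the others. Single T and NK cell markers did not follow their sum. After LPS 1 of the 8 rose and 1 fell, with a median log2 change of -0.83. At 300 mg/kg against LPS alone 4 rose and 1 fell, with a median of 1.16. Their sum was 4564 to 5717 after LPS and 3146 to 4309 at 300 mg/kg. The shares over all probe sets are given with each comparison below. Mast cell markers (9 of 9) summed to 43828 to 45816 in naive arrays and 52515 to 64643 in the others. Mesothelial and fibroblast markers (9 of 9) summed to 443 to 451 and 401 to 2268. The part of these cells in the results was not tested. In such samples, fewer cells of a type and less RNA per cell cannot be told apart.

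LPS raised 7 of the 10 genes against naive cells and lowered none, where 27.1% of all probe sets changed, 10.3% up and 16.8% down. The 7 were Atf4, Asns, Mthfd2, Slc7a5, Slc3a2, Ddit3 and Ddit4. The changes of the 10 genes ran from 0.56 to 4.45 with a median of 1.69, against a median of -0.25 over all probe sets. With 100 mg/kg of SMD none of the 10 passed the test against LPS alone, nor did any other probe set (0%). With 200 mg/kg 3 fell, where 13.1% of all probe sets changed, 6.68% up and 6.39% down. With 300 mg/kg 9 fell, where 27.5% changed, 13.8% up and 13.7% down. With the actin 3'/5' ratio of each array in the model, 0 of the 10 genes fell at 200 mg/kg and 4 fell at 300 mg/kg (Atf4, Asns, Mthfd2 and Psat1). The medians of the 10 genes were -0.29, -0.49 and -1.32 at the 3 doses, against -0.02, -0.05 and -0.04 over all probe sets. No gene of the 10 was higher after SMD at any dose by this test. On their brightest probe sets and without the ratio, Atf4, Slc7a5 and Ddit4 passed at both 200 and 300 mg/kg, and Asns, Mthfd2 and Psat1 passed at 300 mg/kg only. The difference in course between these 2 sets of genes was not tested.

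**Figure D1:**
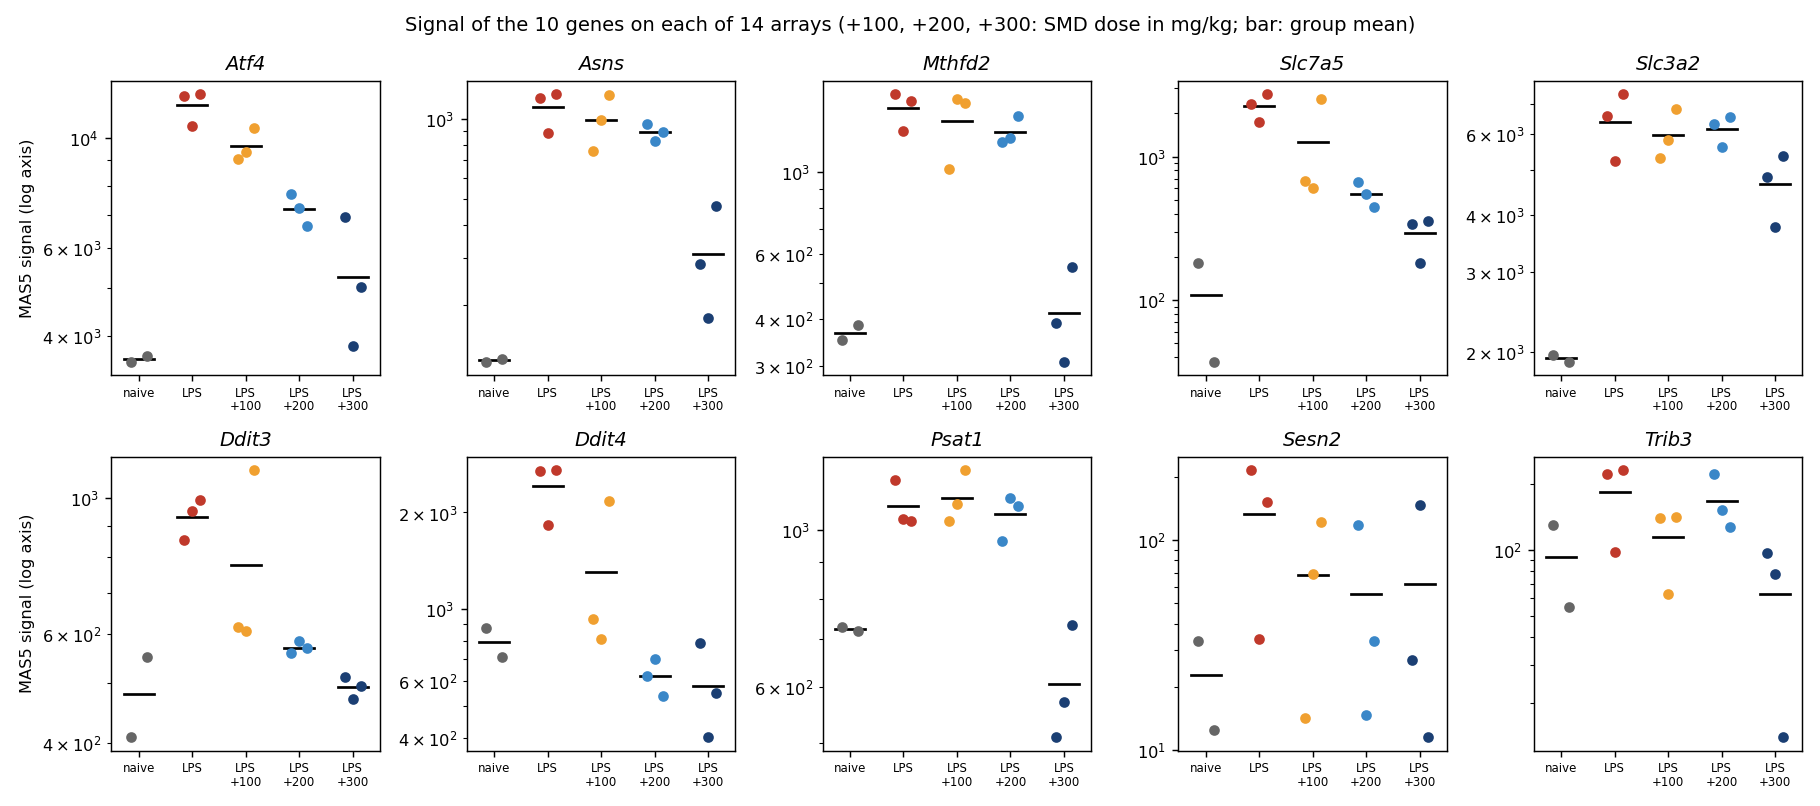
MAS5 signal (log axis) of the 10 genes on each of 14 arrays, by group; each point is 1 array and the bar is the group mean. Asns, Mthfd2 and Psat1 stay high through 200 mg/kg and drop at 300 mg/kg, while Slc7a5, Ddit3 and Ddit4 have 1 high array among the 3 at 100 mg/kg.

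Atf4 encodes the factor that gives the response its name. Its brightest probe set, 1448135_at, read 3557 and 3655 in naive cells and 12124, 10546 and 12203 after LPS. With SMD it read 9041, 9368 and 10442 at 100 mg/kg, 7699.5, 7233 and 6653 at 200 mg/kg, and 6914, 3815 and 5022 at 300 mg/kg. The group means therefore stepped down with each dose from 11624 ± 935 (SD, n = 3) after LPS to 5251 ± 1562 (SD, n = 3) at 300 mg/kg, and every array at each dose lay below every LPS array. The rise after LPS was 1.68 ± 0.19 (SE; limma adjusted p = 2.88e-06), or 3.21-fold. Atf4 fell by 0.69 ± 0.17 at 200 mg/kg (limma adjusted p = 0.0129) and fell by 1.18 ± 0.17 at 300 mg/kg (limma adjusted p = 4.83e-05). The difference at 100 mg/kg was -0.27 ± 0.17, with a limma adjusted p of 0.638. The call at 200 mg/kg was narrow: without LPS replicate 1, LPS replicate 3 or SMD 200 mg/kg replicate 3 the adjusted p was 0.0624, 0.0591 or 0.0507.

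A second Atf4 probe set, 1438992_x_at, gave another shape between the doses. Its means were 2093 in naive cells, 6152 after LPS, 6069 at 100 mg/kg, 3538 at 200 mg/kg and 3742 at 300 mg/kg. On it Atf4 fell between 100 and 200 mg/kg, by 0.77 (limma adjusted p = 0.0107), and the difference between 200 and 300 mg/kg was 0.07 (limma adjusted p = 0.832). On 1448135_at the same steps were -0.42 (adjusted p = 0.253) and -0.49 (adjusted p = 0.108). Both probe sets were higher after LPS and lower at 200 and 300 mg/kg; they differed in where the drop lay. The third probe set, 1439258_at, was below the filter, with group means of 9.7 to 63.4.

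The 3 enzymes among the 10 genes, Asns, Mthfd2 and Psat1, fell at 300 mg/kg and did not pass the test at lower doses. Asns makes asparagine from aspartate and is a classic target of ATF4. Its signal (1451095_at) was 123 and 126 in naive cells, and 1190.5, 886 and 1233 after LPS. It was 757, 986 and 1225 at 100 mg/kg, at 200 mg/kg 953, 829 and 890.1, and at 300 mg/kg 287, 179 and 471. The arrays at 100 and 200 mg/kg overlapped those of LPS, and all 3 at 300 mg/kg lay below them and above the naive ones. Asns rose by 2.98 ± 0.32 after LPS (limma adjusted p = 1.54e-06). It fell by 1.85 ± 0.29 at 300 mg/kg (limma adjusted p = 9.41e-05), where it remained 1.12 ± 0.32 above naive cells (limma adjusted p = 0.018). That last call was lost when either naive array or SMD 300 mg/kg replicate 3 was left out. The other Asns probe set, 1433966_x_at, gave the same calls, with means of 82.1, 730.3, 877, 714 and 286 from naive to 300 mg/kg.

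Mthfd2 is a mitochondrial folate enzyme on the route that feeds formate into nucleotide synthesis. Its signal (1419253_at) was 351 and 386 in naive cells and 1614, 1287 and 1554 after LPS. It was 1014, 1568 and 1533 at 100 mg/kg, 1198, 1234 and 1412 at 200 mg/kg, and 391, 308 and 552 at 300 mg/kg. The 300 mg/kg arrays overlapped the naive arrays and lay far below the others. Mthfd2 rose by 1.96 ± 0.26 after LPS (limma adjusted p = 1.41e-05) and fell by 1.83 ± 0.23 at 300 mg/kg (limma adjusted p = 1.3e-05). A second probe set, 1419254_at, was lower on all 3 arrays at 200 mg/kg, by -0.96 with a limma adjusted p of 0.0671, and fell by 2.52 at 300 mg/kg.

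Psat1 carries out the middle step of serine synthesis. Its signal (1451064_a_at) was 729 and 719 in naive cells, 1179, 1035 and 1029 after LPS, and 1029, 1087 and 1216 at 100 mg/kg. The arrays at 200 mg/kg read 966, 1111 and 1082, and those at 300 mg/kg 509, 572 and 734. The LPS arrays all lay above the naive ones, by 0.56 ± 0.21, with a limma adjusted p of 0.0544. Psat1 fell by 0.83 ± 0.19 at 300 mg/kg (limma adjusted p = 0.00255), and its level there differed from naive cells by -0.27 ± 0.21 (limma adjusted p = 0.396). The change after LPS depended on scaling, since it passed with quantile normalization (0.87, adjusted p = 0.00494) and with median scaling (0.70, adjusted p = 0.0305). The other Psat1 probe set, 1454607_s_at, differed by 0.58 after LPS (limma adjusted p = 0.137) and fell by 0.97 at 300 mg/kg (limma adjusted p = 0.00631).

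On the brightest probe sets, these 3 enzymes were the members that fell between 200 and 300 mg/kg. In that comparison 5.07% of all probe sets changed, 2.02% up and 3.05% down. Mthfd2 fell by 1.62 ± 0.23 (limma adjusted p = 0.00164), Asns fell by 1.56 ± 0.29 (limma adjusted p = 0.00405) and Psat1 fell by 0.80 ± 0.19 (limma adjusted p = 0.0189). Psat1 lost this call without SMD 200 mg/kg replicate 2 or 3, or without SMD 300 mg/kg replicate 1 or 2. On its other probe set, 1454607_s_at, Psat1 differed by -0.80 in this step and did not pass (limma adjusted p = 0.0717). For Ddit4 and Ddit3 the same step was -0.14 ± 0.31 and -0.21 ± 0.23, and for Slc7a5 it was -0.92 ± 0.48, with limma adjusted p of 0.871, 0.702 and 0.32.

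Slc7a5 and Slc3a2 encode the light and heavy chains of LAT1, an exchanger that brings leucine and other large neutral amino acids into cells. On the log2 scale Slc7a5 had the largest rise after LPS of the 10 genes, and the largest fall at 300 mg/kg in the model without the actin ratio; with the ratio Mthfd2 was lower (-1.86) than Slc7a5 (-1.73). Its signal (1418326_at) was 179.9 and 37.3 in naive cells and 2315, 1738 and 2712 after LPS. The SMD arrays read 673, 606 and 2524 at 100 mg/kg, at 200 mg/kg 665, 548 and 445, and at 300 mg/kg 339.7, 180.5 and 357. The third array at 100 mg/kg lay among the LPS arrays, and all other SMD arrays lay below them. Slc7a5 rose by 4.45 ± 0.53 after LPS (limma adjusted p = 5.38e-06), a size that depended on the naive arrays, since it was 5.39 without naive replicate 1 and 3.51 without naive replicate 2. It fell by 1.99 ± 0.48 at 200 mg/kg (limma adjusted p = 0.0112) and fell by 2.91 ± 0.48 at 300 mg/kg (limma adjusted p = 0.000164). With 100 mg/kg the difference was -1.12 ± 0.48 (adjusted p = 0.516). Without replicate 3 of that group Slc7a5 fell by 1.77 (limma adjusted p = 0.0371). The call at 200 mg/kg was lost without LPS replicate 1 (adjusted p = 0.0515) or LPS replicate 3 (adjusted p = 0.0585).

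Slc3a2, the partner chain, kept most of its rise. Its signal (1425364_a_at) was 1965 and 1905 in naive cells, 6590.1, 5240.3 and 7337 after LPS, and 5317, 5821 and 6824 at 100 mg/kg. Its signal was 6332, 5617 and 6559.6 at 200 mg/kg, and at 300 mg/kg 4834, 3760.4 and 5381. The arrays at every dose overlapped those of LPS and all lay above the naive arrays. The rise after LPS was 1.70 ± 0.18 (limma adjusted p = 1.77e-06). Slc3a2 fell by 0.46 ± 0.17 at 300 mg/kg (limma adjusted p = 0.0469), a call lost under 14 of 23 other settings, among them leaving out LPS replicate 3 (-0.35) or SMD 300 mg/kg replicate 2 (-0.31), and it stayed 1.25 ± 0.18 above naive cells (limma adjusted p = 0.000117). At 200 mg/kg the change was -1.99 for the light chain and -0.04 for the heavy chain; the difference between the chains was not tested.

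Among the genes that limit growth or end the response, Ddit4 was lowered most. Ddit4, also called REDD1, restrains the growth kinase mTORC1. Its signal (1428306_at) was 875 and 712 in naive cells and 2694, 1826 and 2708 after LPS. It was 936, 811 and 2170 at 100 mg/kg (2170 was replicate 3), 622, 699 and 537 at 200 mg/kg, and 785, 401 and 552 at 300 mg/kg. The 200 mg/kg arrays lay below both naive arrays. Ddit4 rose by 1.57 ± 0.35 after LPS (limma adjusted p = 0.00223), fell by 1.92 ± 0.31 at 200 mg/kg (limma adjusted p = 0.001) and fell by 2.05 ± 0.31 at 300 mg/kg (limma adjusted p = 8.18e-05). Its difference at 100 mg/kg was -0.99 ± 0.31 (adjusted p = 0.397). Without replicate 3 of that group Ddit4 fell by 1.43 (limma adjusted p = 0.0186).

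Ddit3 encodes CHOP, a transcription factor made under prolonged endoplasmic reticulum stress. Its signal (1417516_at) was 408 and 551 in naive cells, 855, 950.4 and 991 after LPS, and 616, 609 and 1109 at 100 mg/kg. It was 559, 584 and 570.1 at 200 mg/kg, and at 300 mg/kg 512, 470.3 and 495. The third array at 100 mg/kg was above all LPS arrays, and the other SMD arrays were below them. Ddit3 rose by 0.95 ± 0.26 after LPS (limma adjusted p = 0.0107); without naive replicate 1 this rise was 0.74 (adjusted p = 0.155). At 200 mg/kg it was lower on all 3 arrays, by -0.69 ± 0.23, with a limma adjusted p of 0.0596 (0.0225 without SMD 100 mg/kg replicate 3, which enters the shared spread), and it fell by 0.90 ± 0.23 at 300 mg/kg (limma adjusted p = 0.00733). The difference from naive cells at 300 mg/kg was 0.05 ± 0.26. A second Ddit3 probe set, 1443897_at, was below the filter; its mean was 119.7 in naive cells, 91.9 after LPS, 36.9 at 100 mg/kg, 6.17 at 200 mg/kg and 2.73 at 300 mg/kg.

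Trib3, a pseudokinase that binds ATF4 and dampens its activity, and Sesn2, a leucine sensor upstream of mTORC1, were dim and scattered. Trib3 (1456225_x_at) read 129 and 54.9 in naive cells, 221, 97.1 and 230.3 after LPS, and 96.3, 77.3 and 14 at 300 mg/kg. Naive and LPS arrays overlapped, with a difference of 0.89 ± 0.58 (limma adjusted p = 0.296), but its other probe set, 1426065_a_at, rose by 2.19 ± 0.77 (limma adjusted p = 0.0424). At 300 mg/kg Trib3 fell by 1.46 ± 0.52 (limma adjusted p = 0.0438), while 1426065_a_at differed by -1.21 ± 0.69 (adjusted p = 0.22). The call of Trib3 was lost under 11 of 23 other settings, and without SMD 300 mg/kg replicate 3, the array with the signal of 14, the change was -0.87 (adjusted p = 0.231). Sesn2 (1451599_at) read 33.1 and 12.4 in naive cells and 215.7, 33.8 and 151.9 after LPS. It ranged from 11.5 to 146.5 over the 9 SMD arrays. No Sesn2 comparison passed the test: the difference was 1.74 ± 0.89 after LPS (limma adjusted p = 0.168) and -1.11 ± 0.80 at 300 mg/kg (limma adjusted p = 0.341), so changes of this size were not resolved.

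**Figure D2:**
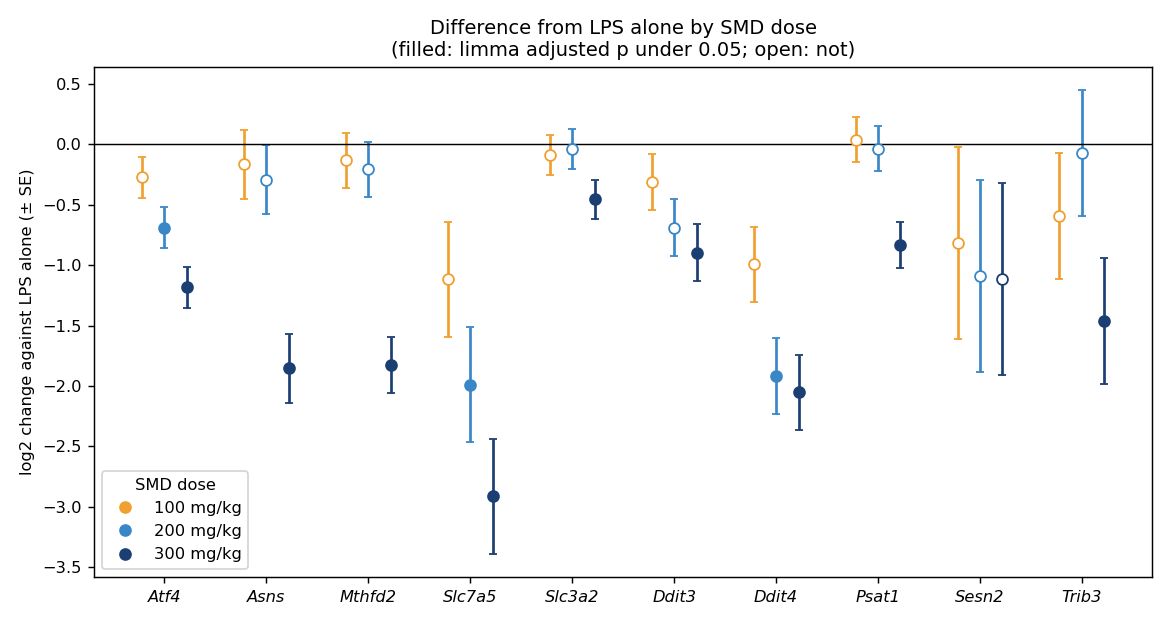
Log2 change of each gene against LPS alone (y axis) at the 3 SMD doses, with standard errors; filled points had a limma adjusted p under 0.05. No point is filled at 100 mg/kg, 3 are at 200 mg/kg and 9 at 300 mg/kg.

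Across the 4 doses under LPS, 0 mg/kg included, a linear dose term was fitted over 12 arrays. It was negative and passed the test for 7 of the 10 genes, where 27.4% of all probe sets passed, 13.6% with a positive and 13.8% with a negative slope. The slope per 100 mg/kg was -0.96 ± 0.12 for Slc7a5 (limma adjusted p = 1.72e-05), -0.71 ± 0.11 for Ddit4 (limma adjusted p = 8.43e-05) and -0.40 ± 0.06 for Atf4 (limma adjusted p = 3.75e-05). It was -0.57 ± 0.12 for Asns, -0.56 ± 0.11 for Mthfd2, -0.31 ± 0.07 for Ddit3 and -0.26 ± 0.08 for Psat1, which did not pass without SMD 300 mg/kg replicate 1 or 2. A straight line describes the late drop of the enzymes only roughly. Slc3a2, Sesn2 and Trib3 did not pass, with slopes of -0.13, -0.36 and -0.39.

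The doses were also compared directly. None of the 10 genes passed between 100 and 200 mg/kg on its brightest probe set, where 1.13% of all probe sets changed by limma, 0.788% up and 0.337% down, and 3979 were under 0.05 before adjustment. Between 100 and 300 mg/kg 6 genes fell, where 17.7% of all probe sets changed, 9.29% up and 8.45% down. The changes were -0.91 for Atf4, -1.69 for Asns and Mthfd2, -1.79 for Slc7a5, -1.06 for Ddit4 and -0.87 for Psat1. Slc7a5 and Ddit4 lost these calls without SMD 100 mg/kg replicate 3, where they were -1.14 and -0.63, and without SMD 300 mg/kg replicate 2, where they were -1.50 and -0.83. Ddit4 also lost it without SMD 300 mg/kg replicate 3 (adjusted p = 0.0539). With the actin ratio in the model Atf4 was -0.68 (limma adjusted p = 0.0112), Asns -1.57 (0.00302), Mthfd2 -1.71 (0.000226) and Psat1 -0.90 (0.00788). In that fit Slc7a5 was -1.06 (adjusted p = 0.169) and Ddit4 -0.39 (adjusted p = 0.374). The 17.7% belongs to the fit without the ratio. The share in the fit with the ratio is not given here, so nothing particular to the 10 genes is drawn from these calls. Against naive cells, 3 of the 10 genes were still higher at 300 mg/kg (Asns, Slc7a5 and Slc3a2), where 20.6% of all probe sets changed, 7.66% up and 13% down. For Slc7a5 the difference was 1.54 ± 0.53 (limma adjusted p = 0.0482), and it was 0.60 (adjusted p = 0.572) without naive replicate 2; this call was lost under 13 of 23 settings. For Atf4 it was 0.50 ± 0.19 (adjusted p = 0.0716) on the brightest probe set and 0.83 ± 0.15 (limma adjusted p = 0.000708) on 1438992_x_at. With the actin ratio the values against naive cells were 0.87 for Atf4 (limma adjusted p = 0.0188), 2.71 for Slc7a5 (adjusted p = 0.00998) and 1.31 for Asns (adjusted p = 0.0684). On the brightest probe sets the order of group means for Atf4, Asns, Mthfd2, Slc7a5 and Ddit3 was LPS, 100, 200, 300 mg/kg and naive. Neighbouring doses often did not differ by the test, and neither Ddit3 nor Mthfd2 at 300 mg/kg differed from naive cells beyond the spread. Other tested probe sets broke this order. The second Atf4 probe set had 300 mg/kg above 200 mg/kg. Asns on 1433966_x_at had 100 mg/kg (877) above LPS (730.3), and Mthfd2 on 1419254_at had 300 mg/kg (216) below naive cells (302). For Ddit4 the naive mean stood between 100 and 200 mg/kg.

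For the comparison of 100 mg/kg with LPS alone, limma called 0 of all probe sets (0%), with 2428 under 0.05 before adjustment and a smallest adjusted p of 0.193. Without SMD 100 mg/kg replicate 3 the same comparison called 470 probe sets, among them Slc7a5 and Ddit4.

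The actin 3'/5' ratio moved with the dose, so the model was also fitted with its log2 as a covariate. None of the 10 genes then passed at 200 mg/kg, and 407 probe sets did in place of 3532: Atf4 was -0.38 (adjusted p = 0.393), Slc7a5 -1.03 (adjusted p = 0.422) and Ddit4 -1.03 (adjusted p = 0.0807). At 300 mg/kg 4 genes still fell, where 5.87% of all probe sets fell in that fit. These were Mthfd2 (-1.86, limma adjusted p = 0.00111), Asns (-1.66, adjusted p = 0.0118), Atf4 (-0.81, adjusted p = 0.0182) and Psat1 (-0.88, adjusted p = 0.0403). Slc7a5 (-1.73), Ddit4 (-0.97), Ddit3 (-0.57) and Slc3a2 (-0.21) kept their sign and did not pass, and Trib3 was 0.01. The value for Mthfd2 moved from -1.83 to -1.86, and that for Ddit4 from -2.05 to -0.97. After LPS the change of Atf4 was 1.68 in both fits, and Psat1 passed with the ratio (adjusted p = 0.0358). The slope per 100 mg/kg with the ratio was -0.58 for Slc7a5 (limma adjusted p = 0.0273), -0.65 for Mthfd2 (0.0205) and -0.28 for Atf4 (0.026). For Asns it was -0.59 (limma adjusted p = 0.0522), and the other members did not pass either. The 27.4% of all probe sets given for the trend belongs to the fit without the ratio. The share in the fit with the ratio is not given here, so nothing particular to the 10 genes is drawn from these calls. SMD dose and the ratio overlap in these arrays, so for all 10 genes a difference that goes with the dose and one that goes with RNA quality cannot be fully told apart.

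**Figure D3:**
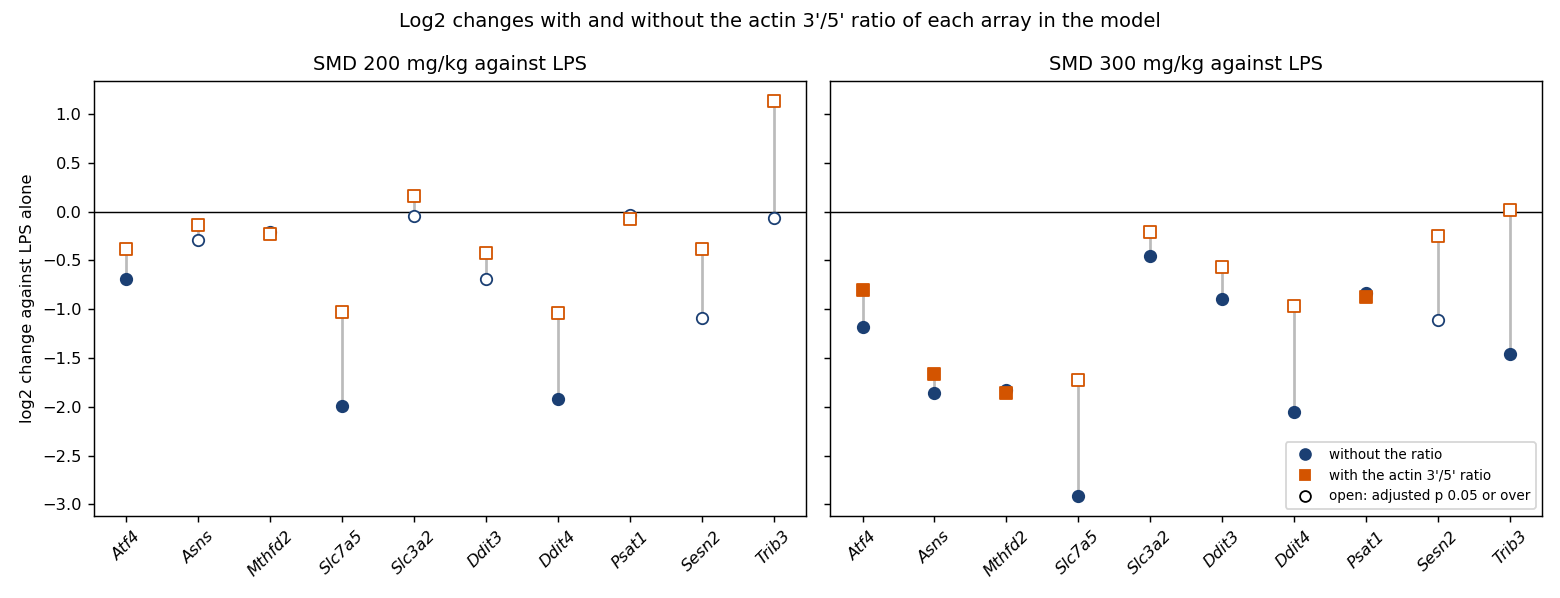
Log2 change against LPS alone (y axis) of each gene at 200 and 300 mg/kg, without (circles) and with (squares) the actin 3'/5' ratio in the model; open symbols had a limma adjusted p of 0.05 or over. Mthfd2, Asns and Psat1 hardly move at 300 mg/kg, and Ddit4, Slc7a5 and Trib3 move toward 0.

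**Figure D4:**
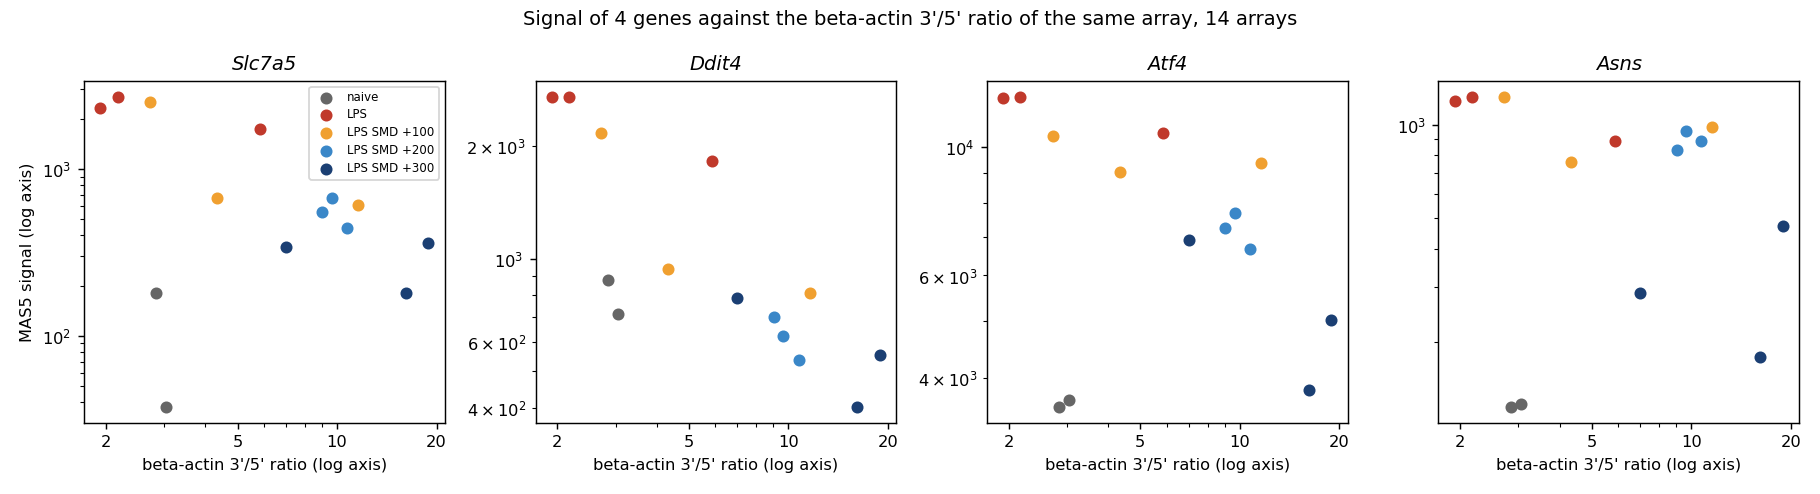
MAS5 signal of Slc7a5, Ddit4, Atf4 and Asns (log axis) against the beta-actin 3'/5' ratio of the same array (log axis), 14 arrays coloured by group. The 3 LPS-challenged arrays with the lowest ratios (1.92, 2.17 and 2.72) have Slc7a5 signals of 2315 to 2712. Slc7a5 is 673 on 100 mg/kg replicate 1 (ratio 4.33) and 1738 on LPS replicate 2 (ratio 5.86). LPS replicate 2 has the highest ratio of its group and the lowest signal of its group for all 4 genes. Asns at 200 mg/kg is 829 to 953 at ratios of 9.03 to 10.7. The part of RNA quality in these signals was not tested.

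Across the 14 arrays, which share their groups, the log2 signals of the 10 genes ran together to different degrees. As a description, Pearson's r was 0.961 between Asns and Mthfd2, 0.934 between Mthfd2 and Psat1, 0.924 between Atf4 and Slc7a5, and 0.873 between Ddit3 and Ddit4. It was 0.356 between Slc3a2 and Ddit4. Among all 12817 genes, those most like Atf4 were Ppp2r2a, Ext1 and Ccdc86 (each 0.979) and Il4ra (0.975). Those most like Asns were Pfkfb3 and Nifk (each 0.989), Rhou (0.988) and Cebpd (0.984), and those most like Ddit3 were Rcl1 (0.938), Minpp1 (0.934), Usp36 (0.926) and Adsl (0.923). Pfkfb3, a glycolysis regulator, had mean signals of 824 in naive cells, 17941 after LPS, 12141 at 200 mg/kg and 3629 at 300 mg/kg. It was picked for its likeness to Asns on these same arrays, so a similar course follows from the choice.

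The rest of the pathway was read from 6 lists of related genes, of which 87 genes were tested. After LPS 25 of the 87 rose and 19 fell, and at 200 mg/kg 13 rose and 7 fell against LPS alone. With 300 mg/kg 19 rose and 22 fell, and with 100 mg/kg none passed by limma. With the actin ratio in the model, these counts were 3 and 1 at 200 mg/kg and 11 and 12 at 300 mg/kg, in place of 13 and 7 and of 19 and 22. The counts without the ratio are read beside the shares over all probe sets given above. Shares both up and down were given only for the model without the ratio. Counts with the ratio, here and for each list below, therefore have no matching shares beside them. Nothing particular to the lists is drawn from any of these counts. Values and counts for each list below come from the model without the ratio, except where the ratio is named.

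Upstream of ATF4, the eIF2alpha kinases, phosphatase subunits and eIF2B gave 4 higher and 3 lower of 13 after LPS, 4 higher and 1 lower at 200 mg/kg, and 4 higher and 4 lower at 300 mg/kg, with medians of 0.27, -0.27 and -0.39. Eif2ak2, the double-stranded RNA kinase PKR, rose by 2.50 ± 0.45 after LPS and fell by 2.94 ± 0.40 at 300 mg/kg. Eif2ak3, the endoplasmic reticulum kinase PERK, did the reverse, at -1.26 ± 0.25 after LPS and 1.65 ± 0.22 at 300 mg/kg. Eif2b3, a subunit of the exchange factor that eIF2 needs, rose by 1.61 after LPS and fell by 1.39 at 300 mg/kg. Ppp1r15b, a constitutive eIF2alpha phosphatase subunit, rose by 1.30 after LPS and by 0.54 at 200 mg/kg. Impact, an inhibitor of the amino acid sensor GCN2, rose by 1.69 at 200 mg/kg and 2.02 at 300 mg/kg, and Eif2ak4, which encodes GCN2, rose by 0.99 at 200 mg/kg. With the actin ratio in the model, 1 gene of this list was higher and 0 lower at 200 mg/kg. At 300 mg/kg 3 were higher and 2 lower in that fit.

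Among 12 ATF4 partners and related bZIP factors, 8 rose and 1 fell after LPS (median 1.48), 1 rose and 4 fell at 200 mg/kg (median -0.30), and 2 rose and 5 fell at 300 mg/kg (median -0.26). Cebpd, Atf3, Jun and Cebpb rose by 3.74, 2.69, 2.15 and 1.61 after LPS. Cebpd was -0.83 at 200 mg/kg and -2.48 at 300 mg/kg, and Maf was -1.63 and -1.99. Jdp2, a repressor of the same family, rose by 1.25 and 1.77 at those doses, and the antioxidant regulator Nfe2l2 fell by 0.83 at 300 mg/kg. Batf3 fell by 1.37 at 200 mg/kg. With the actin ratio, 0 of these factors rose and 1 fell at 200 mg/kg, and 1 rose and 3 fell at 300 mg/kg.

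Other amino acid response and stress targets gave 7 higher and 3 lower of 20 after LPS (median 0.37), 1 higher and 0 lower at 200 mg/kg (median 0.07), and 4 and 4 at 300 mg/kg (median 0.06). Gadd45a, a growth arrest gene, rose by 2.50 ± 0.30 at 200 mg/kg and 3.82 ± 0.30 at 300 mg/kg, in the opposite direction to the 9 members that fell there. Gadd45b rose by 2.81 after LPS. Nupr1 and Xpot rose by 1.18 and 0.84 after LPS and were -0.72 and -0.68 at 300 mg/kg. Ern1, which encodes the stress sensor IRE1, was -1.86 after LPS and 0.90 at 300 mg/kg. Of 11 serine, glycine and folate enzymes, 1 rose and 1 fell after LPS (Shmt2 1.08, Psph -1.07), and 0 rose and 3 fell at 300 mg/kg: Gart (-1.75), Shmt2 (-1.47) and Mthfd1 (-0.66). Shmt2 and Gart were -1.34 and -0.97 at 200 mg/kg. With the actin ratio, 1 of the 20 targets rose and 0 fell at 200 mg/kg, and 3 rose and 2 fell at 300 mg/kg. Of the 11 enzymes, 0 rose and 0 fell at 200 mg/kg in that fit, and 0 rose and 2 fell at 300 mg/kg.

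Amino acid transporters, 16 tested, split evenly after LPS, with 5 higher and 5 lower (median 0.29). The split was 5 higher and 0 lower at 200 mg/kg (median -0.03) and 5 higher and 4 lower at 300 mg/kg (median 0.12). Slc7a11, the cystine transporter, rose by 5.07 ± 0.46 after LPS and by a further 1.71 ± 0.41 at 200 mg/kg, where Slc7a5 fell. With the actin ratio, 1 transporter of the list was higher and 0 lower at 200 mg/kg, and 2 were higher and 2 lower at 300 mg/kg. Slc7a5 did not pass at either dose in that fit. The arginine transporter Slc7a2 rose by 3.62 after LPS and fell by 1.74 at 300 mg/kg, and Slc7a1 rose by 1.31 after LPS. Slc43a2, another leucine carrier, was -3.05 ± 0.33 after LPS and 2.58 ± 0.30 at 300 mg/kg, opposite to Slc7a5 in both. Slc36a4 rose by 1.33 and 1.95, and Slc38a1 by 0.70 and 1.10, at 200 and 300 mg/kg. Of 15 sestrins, TRIB family members and mTORC1 regulators, 0 rose and 6 fell after LPS (median -0.86), 2 rose and 0 fell at 200 mg/kg (median -0.10), and 4 rose and 2 fell at 300 mg/kg (median 0.23). Sesn1 was -2.51 ± 0.23 after LPS and 2.41 ± 0.21 at 300 mg/kg, Sesn3 was -1.07 and 0.98, and Trib2 was -1.47 and 1.01. Castor1, an arginine sensor, fell by 2.24 after LPS, and Mtor fell by 0.79 at 300 mg/kg. With the actin ratio, 0 of these 15 genes rose and 0 fell at 200 mg/kg, and 2 rose and 1 fell at 300 mg/kg. For 100 mg/kg the smallest unadjusted p in each list belonged to Ppp1r15b (0.36), Jdp2 (1.00), Herpud1 (-0.59), Mthfd1 (-0.67), Slc36a4 (0.51) and Trib1 (-1.70), all with adjusted p of 0.375 or over.

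**Figure D5:**
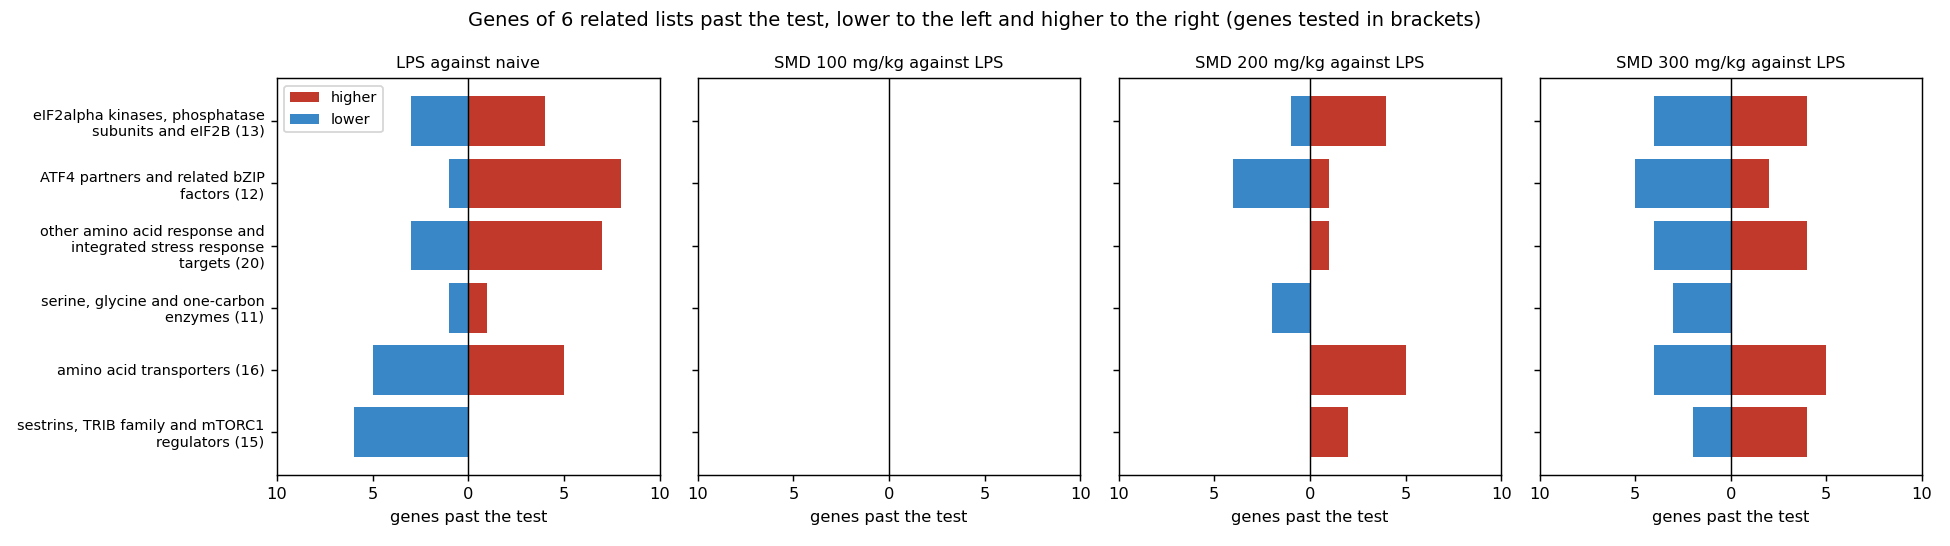
Number of genes past the test (x axis; lower to the left, higher to the right) in each of 6 related lists for 4 comparisons, with the genes tested in brackets. The bars are empty at 100 mg/kg, and in the 300 mg/kg panel 19 genes are higher and 22 lower in all. The counts come from the model without the actin ratio.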

How the data were processed

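Peritoneal cell RNA of 14 mouse samples was labelled from approximately 7.5 µg and hybridised to 1-colour arrays. The deposited values are the authors' intensity, 1 linear MAS5 signal a probe set, per the submitters' processing notes; its version was not found in the sources used here. On every array the mean after trimming 2% at each end was 500. Such scaling shows changes relative to the rest of an array.

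Groups came from the sample titles. Of 45101 probe sets, 64 controls were left out; 34945 had 1 symbol, 932 several and 9160 none, and several-symbol probe sets were never named. Symbols were updated through RefSeq (34741). Values were taken as log2(signal + 16), and the 40% with the lowest mean (below 5.64 on the log2 scale, signal 33.9) were left out. R 4.3.3 and limma 3.58.1 (lmFit, eBayes with trend, two-sided, Benjamini-Hochberg) gave the tests, tested on simulated data. The pseudocount understates changes of dim genes.

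Members and lists were chosen with earlier results of these data known. From each list, up to 4 genes with the smallest p among those called were named; where none was called, the 1 with the smallest unadjusted p. Replicate numbers were not used to pair samples in the main fit. The number of arrays, 2 or 3 a group, limits precision. Alternatives (pseudocount, filter, normalization, array weights, actin ratio, leaving out each array) are in the closing section.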

Additional observations from a re-analysis of the deposited data

How the results depend on the processing

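The 9 comparisons were repeated under 23 other settings. Of 1725 values for single genes, 1602 kept their direction and side of the threshold, 70 lost a call, 23 gained one and 30 changed sign.

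Counts of the 10 genes that passed moved as follows. For 100 mg/kg against LPS the count was 1 with array weights and 0 to 2 when single arrays were left out, where 2 came from leaving out SMD 100 mg/kg replicate 3. For 200 mg/kg it was 0 with the actin ratio and 1 to 4 with arrays left out, where 1 came from leaving out LPS replicate 1 or replicate 3. For 300 mg/kg it was 4 with the actin ratio, and 7 to 9 with arrays left out. Between 200 and 100 mg/kg it was 1 with 1 value a gene. For 300 mg/kg against naive it was 1 to 4 with arrays left out, where 1 came from leaving out naive replicate 2 or SMD 300 mg/kg replicate 3. For the dose trend it was 3 with the actin ratio, a count with no share of all probe sets given beside it. For LPS against naive it was 6 to 9 over all settings. With the replicate block the counts were 7 for LPS against naive and 0, 3 and 9 at the 3 doses against LPS. They were 2 at 300 mg/kg against naive and 7 for the trend. Same-numbered arrays had deviations correlated at -0.127 to 0.185, and other-numbered arrays of different groups at -0.265 to 0.223. With 2 or 3 arrays a group these values cannot show whether same-numbered arrays were paired.

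Signs changed only for values that had no call, except Trib3 at 300 mg/kg. With the actin ratio Slc3a2 was 0.008 at 100 mg/kg and 0.163 at 200 mg/kg, Trib3 was 1.14 at 200 mg/kg, 0.014 at 300 mg/kg and 0.018 for the trend, and Ddit4 was 0.064 for 300 against 200 mg/kg and 0.587 against naive. With 1 value a gene Asns was 0.039 and Psat1 -0.038 at 100 mg/kg, and Mthfd2 was -0.215 for 300 mg/kg against naive. Psat1 was -0.027 at 100 mg/kg with array weights. With median scaling Slc3a2 was 0.022 and Psat1 0.025 at 200 mg/kg. With quantile normalization Trib3 was 0.056 at 200 mg/kg and Psat1 was 0.082 for 300 mg/kg against naive. With the replicate block Ddit3 was -0.031 for 300 mg/kg against naive. With single arrays left out, values at 100 mg/kg ran from -0.331 to 0.01 for Asns, -0.242 to 0.069 for Mthfd2, -0.223 to 0.019 for Slc3a2 and -0.028 to 0.101 for Psat1. Values at 200 mg/kg ran from -0.175 to 0.067 for Slc3a2, -0.076 to 0.027 for Psat1 and -0.434 to 0.127 for Trib3. For 300 against 200 mg/kg Ddit4 ran from -0.376 to 0.094, and for 300 mg/kg against naive Mthfd2 ran from -0.081 to 0.324 and Ddit3 from -0.157 to 0.26. The cause was not tested. The median of all probe sets after LPS was -0.25, -0.07 with quantile normalization and -0.11 with median scaling, and the share lower by limma was 16.8%, 13.5% and 12.7%. Dim genes (Sesn2, Trib3) had signals near the filter, which limits their precision.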
